A study of Homo sapiens with 24 samples.

Results

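The cytosolic ribosomal protein mRNAs measured here are the transcripts of 77 protein-coding genes, 46 for proteins of the large subunit and 31 for proteins of the small subunit, out of 60655 genes in the deposited count table. They were chosen by name and gene type alone: protein-coding genes on an autosome or the X chromosome whose symbol is RPL or RPS with a number, RPLP0, RPLP1, RPLP2 or RPSA. Pseudogenes and the RPS6 kinase genes were left out. Messenger RNA was sequenced in 24 libraries from NB4 and HL-60, a pair of established human leukaemia cell lines, in 8 groups of 3 libraries. The labels give the cell type of NB4 as acute promyelocytic leukemia and that of HL-60 as promyeloblast, and both lines as WT. In each line 1 group was untreated, 1 received 1.0 µM all-trans retinoic acid (ATRA), a ligand of the retinoic acid receptors that drives myeloid differentiation, and 1 received 0.8 µM arsenic trioxide (ATO), which leads to degradation of the PML-RARA fusion protein of NB4. The last group received ATRA and ATO together, with no separate doses in its labels. Treated libraries carry a time of 48 h, and the labels of untreated libraries carry none. The 3 libraries of a group are called batch 1, 2 and 3 in the labels and nothing says that they came from separate cultures, so each p-value is set against the spread among these libraries alone, which may be technical.

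Ribosomal proteins coat and fold the ribosomal RNAs, and most of them are needed once in nearly every cytosolic ribosome. Their mRNAs are among the most abundant of a growing cell, start with a C followed by a run of pyrimidines (the 5′ terminal oligopyrimidine motif, 5′ TOP), and are held back from translation by the cap-binding protein LARP1 when mTORC1 signalling is low, so that amounts of mRNA and of protein need not move together. In blood, loss of 1 copy of several of these genes, RPS19 among them, causes the red cell disorder Diamond-Blackfan anaemia, and loss of RPS14 contributes to the 5q- form of myelodysplastic syndrome. RPL5 and RPL11 bind MDM2 when ribosome assembly fails.

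The bases around the transcription start are shown for the members with the largest changes, because the 5′ TOP motif is the feature by which this family of mRNAs is usually recognised. Each line gives 20 bases before and 15 bases from the RefSeq start (GRCh38.p14, read 5′ to 3′ on the strand of the gene), with the run of pyrimidines that begins with a C at the start in capitals. RPS19 and RPL13A had the largest rises with ATRA in NB4 and RPS27 that in HL-60, and RPS21 and RPL28 had the largest rises with the combination in NB4.
RPS19: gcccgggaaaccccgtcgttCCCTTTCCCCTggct
RPL13A: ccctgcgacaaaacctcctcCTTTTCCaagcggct
RPS27: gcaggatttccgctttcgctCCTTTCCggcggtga
RPS21: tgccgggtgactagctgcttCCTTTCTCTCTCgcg
RPL28: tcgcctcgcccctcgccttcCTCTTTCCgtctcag
RPL12 lay lowest and RPL18 and RPS6 highest in untreated NB4 relative to HL-60. RPL36 had the largest fall with the combination in HL-60 and RPL21 that with ATO in NB4.
RPL12: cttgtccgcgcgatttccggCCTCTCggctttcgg
RPS6: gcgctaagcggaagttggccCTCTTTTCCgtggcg
RPL18: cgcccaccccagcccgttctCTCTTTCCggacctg
RPL36: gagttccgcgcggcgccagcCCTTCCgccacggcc
RPL21: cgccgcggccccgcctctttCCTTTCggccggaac
The start of RPL6, which fell with every treatment in both lines, and that of RPS28 hold no such run.
RPL6: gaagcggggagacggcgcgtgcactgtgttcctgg
RPS28: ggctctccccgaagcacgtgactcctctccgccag
The windows lie at chr19:41860235-41860269 (RPS19), chr19:49487588-49487622 (RPL13A), chr1:153990742-153990776 (RPS27), chr20:62387083-62387117 (RPS21), chr19:55385912-55385946 (RPL28), chr9:127451392-127451426 (RPL12), chr9:19380222-19380256 (RPS6), chr19:48619164-48619198 (RPL18), chr19:5690275-5690309 (RPL36), chr13:27251538-27251572 (RPL21), chr12:112409271-112409305 (RPL6) and chr19:8321476-8321510 (RPS28).

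A C at the start followed by at least 4 further C or T was found at 46 of the 62 members that have a start in the RefSeq table used (74.2%). Over all 27305 genes of that table the share was 5.1%. It was 6 of 69 (8.7%) for mitochondrial ribosomal protein genes and 10 of 12 (83.3%) for translation factors known to have 5′ TOP mRNAs. Only the strand of the gene was searched. The starts are those of the annotation, not measured in these cells, and the motif describes the letters in this window only. Among the 15 members with no listed start were RPL23, RPL23A, RPL30, RPL37, RPL5, RPL7, RPL8, RPS15A, RPS2 and RPS20.

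Library totals ran from 37811652 to 57795273 counts, and all 77 members passed the filter on low counts in every fit. Members held 6.57% ± 0.24 (SD, n = 3) of all counts in untreated NB4, 6.87% ± 0.33 with ATRA, 7.18% ± 0.052 with ATO and 6.89% ± 0.23 with both. In HL-60 the shares were 7.18% ± 0.40, 7.05% ± 0.056, 7.8% ± 0.16 and 6.28% ± 0.37 in the same order. The highest mean share was thus that of HL-60 with ATO and the lowest that of HL-60 with the combination, with no overlap between either and the untreated HL-60 libraries. In NB4 the ATO libraries lay above the untreated ones, and the other treated groups overlapped them. In bulk RNA, fewer cells of a type and less RNA per cell cannot be told apart. The myeloid markers MPO, PRTN3, SPI1 and CD33 were present in all 24 libraries. Levels are given as CPM, the count scaled to an equal library total corrected by edgeR's TMM factor. ELANE was at 0.195 CPM in untreated NB4 against 175.4 in untreated HL-60, and MS4A1, HBB, KRT19 and COL1A2 were at 0 in all 24. NB4 ATRA batch 2 and HL-60 combination batch 2 stood apart from the other libraries of their groups, with chi-square values per degree of freedom over gene counts of 20.5 and 39.3 between the NB4 library and the other ATRA libraries and 15.5 between those, and of 25.9 and 18.4 against 5.68 in the HL-60 group.

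Members with the lowest levels overlap other genes in the annotation. RPS10, RPL26, RPL36A and RPL17 share between 71.0% and 100% of their coding bases with other annotated genes, mostly read-through genes such as RPS10-NUDT3 and RPL17-C18orf32 (GENCODE v29). Their levels in untreated NB4 ran from 8.49 CPM per kb of coding sequence for RPS10 to 88.2 for RPL36A, against 652 for RPL34, a large subunit protein gene with no shared coding bases. In all, 9 members share over 50% of their coding bases (RPL22, RPL30, RPS15A and RPS23 among the others), and values for these 9 are uncertain. The part of this overlap in their levels was not tested. How shared and multiply mapped reads were counted is not given in the sources used here, which also touches members with near-identical processed pseudogenes. The 1593 pseudogenes named after members held between 0.874% and 1.1% as many counts as the members themselves.

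The untreated lines were compared first. Of 77 members, 55 were lower and 9 higher in NB4 than in HL-60 (edgeR quasi-likelihood test, Benjamini-Hochberg adjusted p below 0.05 over all 17930 genes tested), with a median log2 difference of -0.36 (-0.21 with library sizes alone, a scaling that moved the median of all genes to 0.12 and gave 44 lower and 16 higher). That is 71.4% of members lower and 11.7% higher. Among all genes tested 34.0% were lower and 29.1% higher in NB4, 63.2% in either direction, with a median of -0.013. Lower members were spread over both subunits, 32 of 46 in the large and 23 of 31 in the small. For 53 of 77 members the difference was below 1.5-fold, and for 64 (83.1%) the libraries of the lines did not overlap, as for 66.7% of all genes tested.

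RPL12, a protein of the stalk base of the large subunit, differed most. Its levels were 735, 749 and 804 CPM in the 3 untreated NB4 libraries and 1865, 2032 and 1788 CPM in the HL-60 libraries (log2 difference -1.31 ± 0.056 (SE), adjusted p = 2.39e-19). Every NB4 library lay below every HL-60 library. RPS19, a small subunit protein needed for processing of the 18S ribosomal RNA precursor, was at 264, 261 and 285 CPM in NB4 and 635, 703 and 594 CPM in HL-60 (log2 difference -1.25 ± 0.069 (SE), adjusted p = 2.03e-16). RPS27, a zinc-finger protein of the small subunit, was at 378, 424 and 448 against 968, 1039 and 878 CPM (log2 difference -1.21 ± 0.073 (SE), adjusted p = 2.42e-15). The groups did not overlap for either gene.

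At the other end, RPL18 of the large subunit was at 1337, 1331 and 1394 CPM in NB4 and 673, 723 and 651 CPM in HL-60 (log2 difference 0.99 ± 0.063 (SE), adjusted p = 7.66e-15). RPS6, the small subunit protein phosphorylated by S6 kinases, was at 2682, 2610.1 and 2701 and 1355, 1468 and 1346 CPM (log2 difference 0.94 ± 0.046 (SE), adjusted p = 9.44e-18). In both cases all NB4 libraries were the higher ones. Per kb of coding sequence, RPS6 was thus at 3566 CPM in NB4 and 1860.0 in HL-60, and RPS19 at 620.4 and 1480.0. The highest level per kb of coding sequence in both lines was that of RPL41, whose protein is the shortest of the ribosome (5416 and 7083 CPM per kb). RPS24 followed (5313 and 5843). Only 75 of the 469 bases of the main RPL41 transcript are coding, against 399 of 634 for RPS24. This rank therefore depends on dividing by coding length and is not a rank of mRNA amounts.

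Of the ribosomal proteins followed throughout, RPL11 (log2 difference -0.71 ± 0.050, adjusted p = 9.47e-14), RPL3 (-0.59 ± 0.054, adjusted p = 3.25e-11), RPS27A (-0.43 ± 0.054, adjusted p = 4.13e-08), RPSA (-0.31 ± 0.053, adjusted p = 6.09e-06) and RPLP0 (-0.14 ± 0.054, adjusted p = 0.0239) were lower in NB4. RPL22, whose coding bases are over 50% shared, was lower as well (-1.04 ± 0.051, adjusted p = 9.53e-18). RPL5 (-0.093 ± 0.044, adjusted p = 0.0647) and RPS4X (-0.025 ± 0.046, adjusted p = 0.665) did not pass the test. The call of RPLP0 was lost without NB4 untreated batch 1, NB4 untreated batch 2, HL-60 untreated batch 1 or HL-60 untreated batch 2 (-0.10 to -0.14, adjusted p = 0.062 to 0.144), and its difference was 0.0097 with library sizes alone and -0.036 with a GC trend removed. RPL3 reaches toward the peptidyl transferase centre, RPLP0 carries the acidic stalk, and RPS27A is made as a fusion with ubiquitin.

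**Figure D1:**
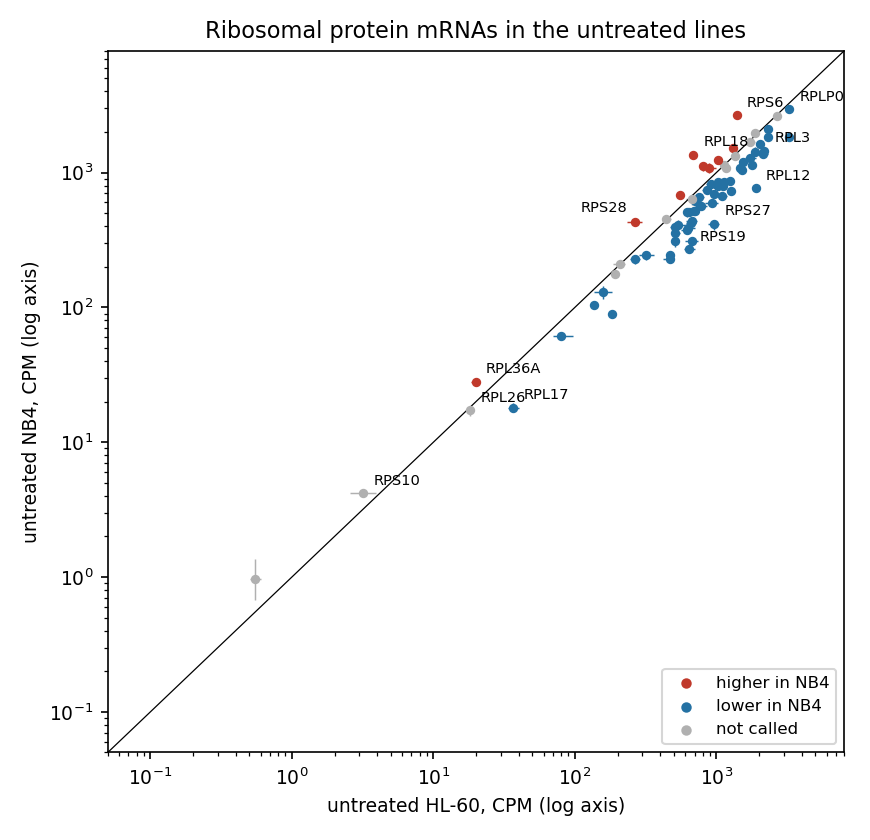
Mean level of each of the 77 members in untreated HL-60 (x axis) and untreated NB4 (y axis), in CPM on log axes, with bars from the lowest to the highest of 3 libraries and a line of equal levels. Blue points (55 members lower in NB4) lie below the line, RPL12, RPS19 and RPS27 among the farthest, red points (9 higher) such as RPS6 and RPL18 lie above it, and grey points were not called.

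A member's difference between the untreated lines went with that of the genes around it. For 71 members with at least 5 other protein-coding, non-ribosomal genes tested within 1000 kb, the Spearman rank correlation between the member's log2 difference and the median log2 difference of those neighbours was 0.77 (Pearson 0.707). It was 0.725 over 65 members with a window of 500 kb, 0.592 over 76 members with 2000 kb, and 0.762 over the 62 members in the first window that share at most 50% of their coding bases. For all 11856 protein-coding genes tested it was 0.352. Points share libraries, and members that lie close together share neighbours, so these values are descriptions. For the changes with treatment, correlations over the members lay between -0.0818 and 0.329 in the 6 comparisons with untreated cells at 1000 kb.

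Values at single loci were as follows. The neighbours of RPS6 on chromosome 9 (5 genes, median 1.21) and of RPL18 on chromosome 19 (56 genes, median 0.94) were higher in NB4, as was each of these members. Around RPS19, at 41859918 to 41872926 on chromosome 19 (GRCh38), 18 of 32 neighbours were lower in NB4 and 2 higher, with a median of -0.78. Around RPS27 on chromosome 1, 28 of 39 were lower and 2 higher, with a median of -0.58. RPL12 on chromosome 9 did not share the direction of its surroundings: 10 of its 34 neighbours were higher and 10 lower, with a median of 0.00040. RPL22 on chromosome 1 (0.099 for 18 neighbours, against -1.04 for itself) and RPL26 on chromosome 17 (0.72 for 41 neighbours, against -0.083) also differed from theirs. The cause of the likeness of members and their neighbours was not tested.

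In NB4, the line with the fusion, ATRA was the first treatment compared with no treatment. With ATRA 32 of 77 members rose and 9 fell (edgeR), which is 41.6% and 11.7% of members beside 31.3% and 28.6% of all 16370 genes tested in NB4 (59.9% in either direction). The changes were small. The median log2 change of members was 0.080, that of all genes 0.028, and 76 of 77 members changed by less than 1.5-fold. The interquartile range was 0.24 for members and 1.09 for all genes. The median in batches 1, 2 and 3 was 0.17, -0.015 and 0.11, with batch 2 the one whose ATRA library stood apart. With library sizes alone 23 rose and 11 fell.

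RPS19 rose most, from 264, 261 and 285 CPM untreated to 401, 343 and 425 CPM with ATRA (log2 fold change 0.55 ± 0.073 (SE), adjusted p = 1.07e-06). RPL13A, a large subunit protein that also takes part in translational silencing of inflammatory mRNAs, went from 1329, 1333 and 1427 to 2024, 1682 and 2079 CPM (log2 fold change 0.52 ± 0.068 (SE), adjusted p = 7.49e-07). RPS9 of the small subunit went from 372, 397 and 423 to 574, 489 and 600.5 CPM (log2 fold change 0.50 ± 0.072 (SE), adjusted p = 2.99e-06). For these 3 genes every ATRA library was above every untreated library, and ATRA batch 2 was the lowest of the ATRA libraries each time.

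RPL6 of the large subunit fell, from 2017, 1896 and 1953 to 1457, 1542 and 1438 CPM (log2 fold change -0.38 ± 0.050 (SE), adjusted p = 7.51e-07), with no overlap between the groups. RPL26, a large subunit protein that also binds p53 mRNA and whose coding bases are mostly shared, fell from 18.2, 17.8 and 15.7 to 10.2, 12 and 11.4 CPM (log2 fold change -0.60 ± 0.11 (SE), adjusted p = 6.34e-05). RPLP0 rose (log2 change 0.48 ± 0.061, adjusted p = 5.15e-07), as did RPL3 (0.25 ± 0.062, adjusted p = 0.00165). Of the MDM2-binding pair, RPL5 fell (-0.18 ± 0.050, adjusted p = 0.00386) and RPL11 was at -0.063 ± 0.050 and did not pass (adjusted p = 0.293). By subunit, 19 of 46 large subunit members rose and 8 fell, and 13 of 31 small subunit members rose and 1 fell.

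With ATO alone in NB4, 16 members rose and 14 fell, which is 20.8% and 18.2% of members beside a background of 21.2% higher and 19.6% lower among all genes (40.8% in either direction). The median log2 change was 0.065 (all genes 0.020) and no member changed by 1.5-fold. With a smooth trend of GC content taken out of each library, an alternative added after the data were seen, 10 members rose and 18 fell and the median was -0.022. The split leaned the other way with library sizes alone, where 39 rose and 7 fell, and in a fit of the untreated and ATO libraries only, where 34 rose and 16 fell. RPS21, a small protein of the small subunit, went from 116, 131 and 145 CPM to 176, 168 and 174 CPM (log2 fold change 0.39 ± 0.10 (SE), adjusted p = 0.00366). RPL28 of the large subunit went from 227, 215 and 237 to 296, 310.0 and 289 CPM (log2 fold change 0.38 ± 0.081 (SE), adjusted p = 0.000645). For both, every ATO library was above every untreated one.

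RPL21 of the large subunit fell most with ATO, from 1122, 1138 and 1140.4 to 824, 861 and 821 CPM (log2 fold change -0.45 ± 0.052 (SE), adjusted p = 4.62e-07). RPL6 fell again, to 1533, 1562 and 1561 CPM (log2 fold change -0.35 ± 0.050 (SE), adjusted p = 8.84e-06). The groups did not overlap for either. RPL17, which lines the nascent peptide tunnel, has only shared coding bases and fell from 19.5, 17.2 and 17.3 to 14.4, 13.4 and 13.6 CPM (log2 fold change -0.40 ± 0.093 (SE), adjusted p = 0.00173). RPL5 also fell (log2 change -0.27 ± 0.050, adjusted p = 0.000194), while RPLP0 (0.24 ± 0.061, adjusted p = 0.00285) and RPL3 (0.21 ± 0.062, adjusted p = 0.00838) rose. With the GC trend removed RPLP0 (0.080, adjusted p = 0.0789) and RPL3 (0.051, adjusted p = 0.288) did not pass. The count of members called was 18 without untreated batch 1 and 19 without ATO batch 1.

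With the combination, members moved both ways in NB4. As many as 24 rose and 25 fell, 31.2% and 32.5% of members beside 35.4% and 32.8% of all genes (68.2% in either direction). The median log2 change was -0.013 (all genes 0.050). It was above 0 under other scalings, at 0.065 with library sizes alone (31 risen, 21 fallen, all genes 0.129) and 0.00044 with the size factors of DESeq2. With DESeq2 itself it was -0.00023, and with the GC trend removed -0.075 (24 risen, 32 fallen, all genes 0.078). The interquartile range was 0.41 (all genes 1.43), and 67 of 77 changed by less than 1.5-fold. The batch medians were -0.0096, 0.091 and -0.12.

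RPS21 rose to 181, 234 and 203 CPM (log2 fold change 0.65 ± 0.10 (SE), adjusted p = 6.27e-06) and RPL28 to 348, 389 and 332 CPM (log2 fold change 0.65 ± 0.082 (SE), adjusted p = 3.24e-07). RPS27 went from 378, 424 and 448 to 566, 668 and 651 CPM (log2 fold change 0.59 ± 0.071 (SE), adjusted p = 1.75e-07). In these 3 genes all combination libraries exceeded all untreated ones. RPL17 fell to 8.79, 9.15 and 9.52 CPM (log2 fold change -0.98 ± 0.096 (SE), adjusted p = 5.66e-09) and RPL26 to 8.93, 10.1 and 10.7 CPM (log2 fold change -0.80 ± 0.11 (SE), adjusted p = 9.7e-07). Both have shared coding bases: of the 9 members that share over 50%, 7 fell and 1 rose, with a median log2 change of -0.56, and without them the counts were 23 risen and 18 fallen with a median of 0.0016. Which gene the shared reads came from was not tested.

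Among members without shared coding bases, RPL6 was at 1285, 1209.6 and 1256 CPM with the combination (log2 fold change -0.65 ± 0.050 (SE), adjusted p = 1e-10) and RPL21 at 735, 733 and 779 CPM (log2 fold change -0.61 ± 0.052 (SE), adjusted p = 7.41e-10). Both lay below every untreated library. RPS26, which sits at the messenger exit and is mutated in Diamond-Blackfan anaemia, fell as well (log2 change -0.60 ± 0.063, adjusted p = 1.91e-08). RPL5 fell (-0.44 ± 0.050, adjusted p = 5.75e-08), and RPS19 (0.46 ± 0.073, adjusted p = 9.07e-06) and RPL13A (0.40 ± 0.068, adjusted p = 2.26e-05) rose. RPL11 fell (-0.22 ± 0.050, adjusted p = 0.000645), RPL22 with its shared coding bases fell (-0.45 ± 0.063, adjusted p = 1.35e-06), and RPS6, at -0.11 ± 0.046 (adjusted p = 0.035), turned to 0.060 with the GC trend removed.

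Set against ATRA alone, the combination left 29 members lower and 4 higher in NB4 (all genes 21.2% and 16.8%, 38.0% in either direction), with a median log2 difference of -0.13 (0.010 with library sizes alone, where the median of all genes was 0.14, 11 members were lower and 12 higher). Set against ATO alone, 19 were lower and 11 higher (all genes 28.3% and 28.6%, together 56.9%), or 15 and 15 with the size factors of DESeq2. The interaction term asks whether the combination differs from the sum of both single changes on the log2 scale. It was negative for 17 members and positive for 0 (all genes 12.5% and 6.14%, together 18.7%), with a median of -0.15 against -0.062 for all genes. That count moved from 32 without ATRA batch 2 to 8 without untreated batch 1, and it was 9 without untreated batch 2, ATRA batch 1, ATO batch 3, combination batch 1 or combination batch 3 and 10 without ATRA batch 3 or ATO batch 1.

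**Figure D2:**
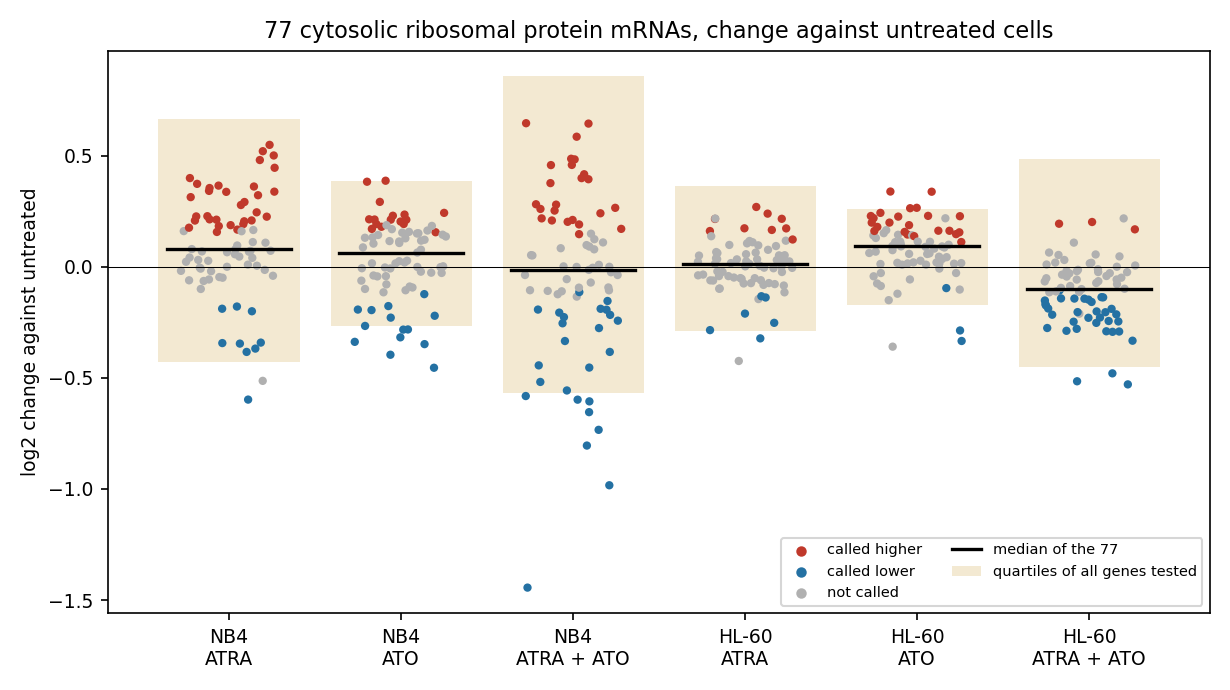
Log2 change (y axis) of each of the 77 members (points, spread sideways) in the 6 comparisons with untreated cells (x axis), red where called higher, blue where called lower and grey where not called, with the median of the members (bar) and the range between the quartiles of all genes tested (shaded). The medians lie between -0.10 and 0.093, and RPL17 and RPL26 are among the lowest points in NB4 with the combination.

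HL-60 carries no PML-RARA fusion, and its response was taken in the same way. With ATRA 9 members rose and 6 fell, 11.7% and 7.79% of members beside 25.2% and 23.3% of all 15895 genes tested in that line (48.6% in either direction). The median log2 change was 0.014 (-0.031 with library sizes alone, where 5 rose and 14 fell, and -0.0044 with the GC trend removed, where 10 rose and 14 fell) and the interquartile range 0.13, against 0.65 for all genes. RPS27 rose from 968, 1039 and 878 to 1083, 1214 and 1161 CPM (log2 fold change 0.27 ± 0.064 (SE), adjusted p = 0.0012) and RPS9 from 511, 543 and 466 to 603, 585 and 596 CPM (log2 fold change 0.24 ± 0.059 (SE), adjusted p = 0.00183). All ATRA libraries were above all untreated ones for both. RPL18 fell from 673, 723 and 651 to 547, 538 and 543 CPM (log2 fold change -0.32 ± 0.050 (SE), adjusted p = 1.26e-05), with no overlap, and RPL26 fell too (log2 fold change -0.28 ± 0.091 (SE), adjusted p = 0.0121). RPS29 of the small subunit (log2 fold change 0.22 ± 0.11 (SE), adjusted p = 0.0999) and the scarcely counted RPS10 (log2 fold change -0.42 ± 0.21 (SE), adjusted p = 0.104) did not pass the test. With the batch number as a block RPS29 passed (0.23, adjusted p = 0.00344). Without untreated batch 2 the calls numbered 24, and RPL26 lost its call without untreated batch 2, ATRA batch 1 or ATRA batch 2 (-0.25 to -0.26, adjusted p = 0.0565 to 0.0603).

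With ATO in HL-60, 23 members rose and 3 fell, 29.9% and 3.9% of members beside 16.5% and 12.1% of all genes (28.7% in either direction). All 77 changes were below 1.5-fold, with a median log2 change of 0.093 (all genes 0.020) and batch medians of 0.063, 0.017 and 0.17. RPL10A of the large subunit went from 737, 812 and 696 to 925, 958 and 935 CPM (log2 fold change 0.34 ± 0.052 (SE), adjusted p = 2.92e-05). RPS12, a small subunit protein, went from 629, 671 and 561 to 735, 813 and 785 CPM (log2 fold change 0.34 ± 0.061 (SE), adjusted p = 0.000215). RPLP1, an acidic protein of the stalk, rose by less (log2 fold change 0.27 ± 0.070 (SE), adjusted p = 0.00617). For these 3 the ATO libraries lay above all untreated libraries. RPL26 (log2 fold change -0.33 ± 0.091 (SE), adjusted p = 0.00767) and RPL36A (log2 fold change -0.29 ± 0.082 (SE), adjusted p = 0.0111), both with shared coding bases, fell, and RPS10 did not pass (log2 fold change -0.36 ± 0.21 (SE), adjusted p = 0.223). The number of calls depended on the untreated libraries and on ATO batch 2: it was 44 without untreated batch 2, 16 without untreated batch 1, and 11 without untreated batch 3 or without ATO batch 2. Single calls were lost for RPLP1 without untreated batch 3 or ATO batch 2 (0.20 to 0.21, adjusted p = 0.0505 to 0.0604), RPL26 without ATO batch 3 (-0.28, adjusted p = 0.0522) and RPL36A without untreated batch 1 (-0.24, adjusted p = 0.0589).

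With the combination members were lower in HL-60. Of the 77, 34 fell and 3 rose, 44.2% and 3.9% of members beside 29.7% and 30.7% of all genes (60.4% in either direction), with a median log2 change of -0.10 where all genes had -0.0027. All 77 changes were again below 1.5-fold. RPL36 of the large subunit went from 213, 225 and 187 to 117, 167 and 143 CPM (log2 fold change -0.53 ± 0.086 (SE), adjusted p = 1.31e-05). RPL18 went from 673, 723 and 651 to 452, 518 and 445 CPM (log2 fold change -0.51 ± 0.051 (SE), adjusted p = 7.54e-09). Every combination library was below every untreated library in both. RPL26 fell by less (log2 fold change -0.48 ± 0.092 (SE), adjusted p = 0.000105).

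Against that direction, RPL39, a short protein of the peptide exit tunnel, rose from 436, 476 and 414 to 487, 515 and 496 CPM (log2 fold change 0.19 ± 0.051 (SE), adjusted p = 0.00231). RPS27 was at 1011, 1188 and 1082 CPM with the combination (log2 fold change 0.20 ± 0.064 (SE), adjusted p = 0.00889), where the groups overlapped. The third rise was that of RPS12 (log2 change 0.17 ± 0.061, adjusted p = 0.0214), named after its value was seen. RPS27 lost its call without untreated batch 3 (0.14, adjusted p = 0.0763) and RPS12 without untreated batch 3 or combination batch 2 (0.087 to 0.098, adjusted p = 0.142 to 0.173). With library sizes alone 0 members rose and 51 fell, so none of these 3 rises passed (RPL39 0.11, adjusted p = 0.0514). Batch medians were -0.16, -0.12 and -0.078, and the median was -0.055 without untreated batch 2, -0.15 without untreated batch 3 and -0.15 without combination batch 2, the library that stood apart.

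The combination was also set against each single drug, with its own libraries in common. Compared with ATRA alone, 36 members were lower and 2 higher with the combination (all genes 21.9% and 22.0%, 43.9% in either direction). Compared with ATO alone, 51 were lower and 1 higher (all genes 27.0% and 27.5%, together 54.5%), with a median log2 difference of -0.20. The interaction term was negative for 42 members and positive for 0 (all genes 18.1% and 14.4%, together 32.5%), with a median of -0.22 against -0.056. It was negative for 24 of 46 large subunit and 18 of 31 small subunit members. With the GC trend removed it was negative for 38 members and positive for 4, with a median of -0.14 (all genes -0.023).

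**Figure D3:**
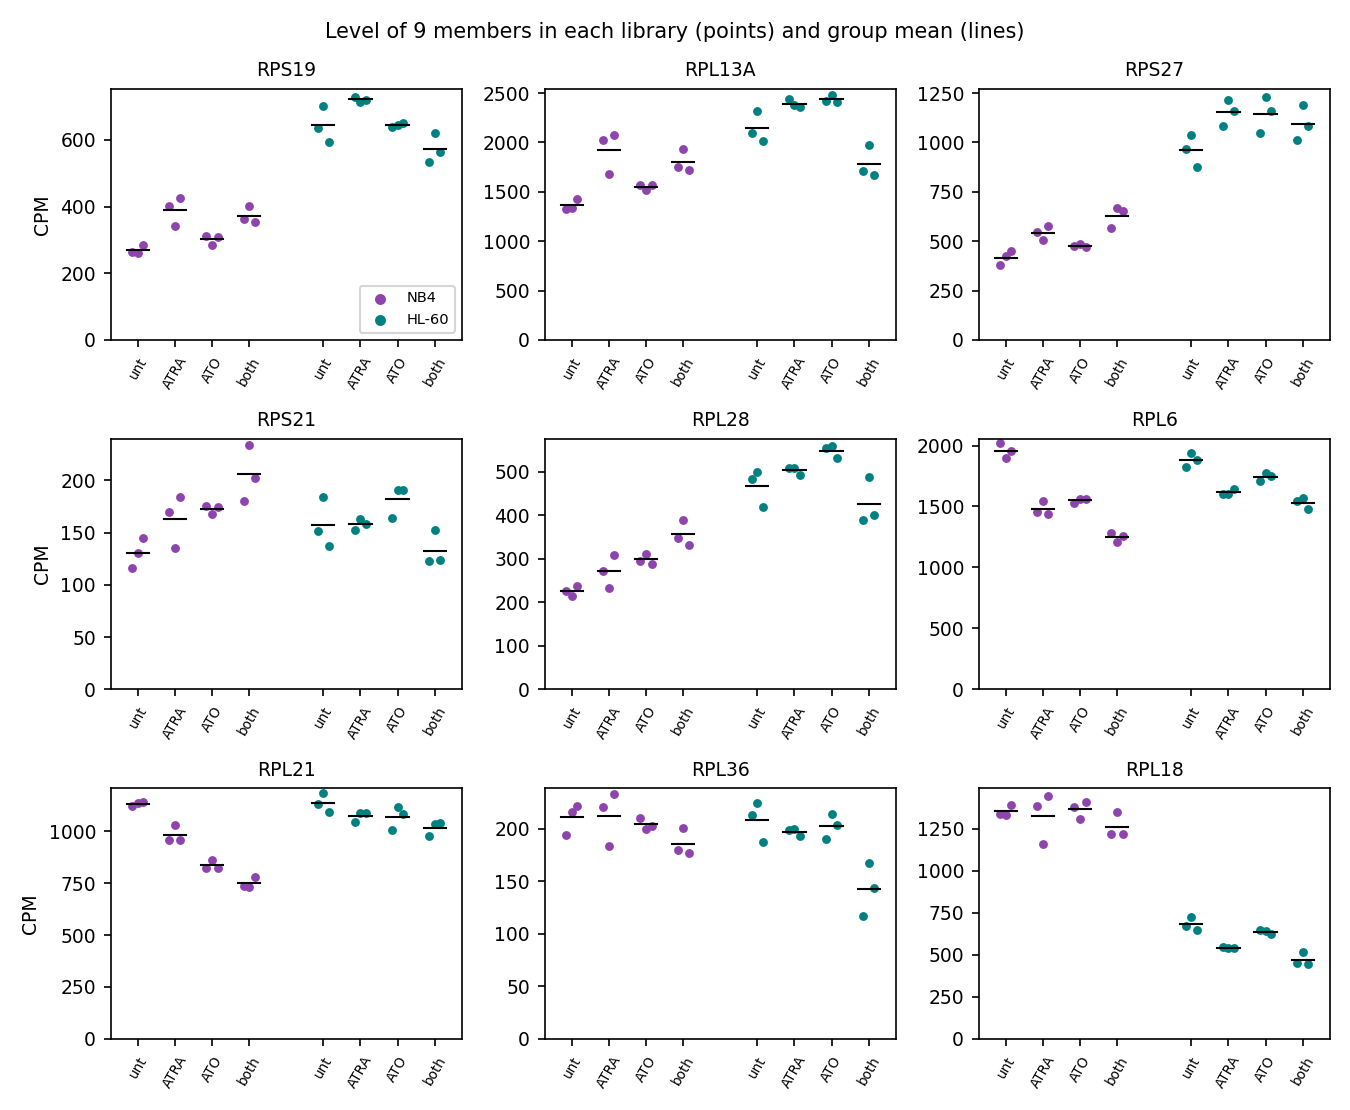
Level in CPM (y axis, from 0) of RPS19, RPL13A, RPS27, RPS21, RPL28, RPL6, RPL21, RPL36 and RPL18 in each of the 24 libraries (points: NB4 purple, HL-60 green) by group (x axis: untreated, ATRA, ATO and both), with group means as lines. RPS27 stands higher in the treated groups of both lines, RPL6 lower, and RPS21 and RPL28 rise in NB4 while the untreated and combination libraries of HL-60 overlap.

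Calls shared by the lines were counted next, beside those of all 14562 genes tested in both. With ATRA, 8 of the 77 members rose in both (RPL13A, RPL3, RPL31, RPL39, RPLP1, RPS19, RPS27 and RPS9), 4 fell in both (RPL14, RPL26, RPL6 and RPS26) and 0 moved in opposite directions, which is 10.4%, 5.19% and 0% of members beside 17.6%, 17.2% and 4.13% of all genes. With ATO 12 rose in both (among them RPL10, RPL10A, RPL13A, RPL28, RPL3, RPL30, RPL37, RPLP0, RPS14, RPS20 and RPS27), 2 fell in both (RPL26 and RPL6) and 0 were opposite, or 15.6%, 2.6% and 0% of members beside 10.1%, 9.00% and 1.12% of all genes. With the combination 3 rose in both (RPL39, RPS12 and RPS27, of which none passed in HL-60 with library sizes alone), 13 fell in both and 7 were opposite, or 3.9%, 16.9% and 9.09% of members beside 19.3%, 19.8% and 9.96% of all genes. The 7 were RPL13A, RPL41, RPLP0, RPS14, RPS19, RPS21 and RPS28, each of them higher in treated NB4 and lower in treated HL-60, where RPS14 lost its call without untreated batch 2 or combination batch 1 (-0.092 to -0.098, adjusted p = 0.0822 to 0.0958), RPS19 without untreated batch 2, combination batch 1 or combination batch 3 (-0.083 to -0.14, adjusted p = 0.0642 to 0.172) and RPS21 without untreated batch 2, combination batch 1 or combination batch 3 (-0.10 to -0.18, adjusted p = 0.125 to 0.313). Over the 68 members that share at most 50% of their coding bases, changes in the lines, which share no library, correlated at a Spearman rho of 0.766 with ATRA, 0.787 with ATO and 0.259 with the combination. RPL13A, RPL26, RPL6 and RPS27 were called in all 6 treatments (5.19% of members, 12.4% of all genes), and RPL27, RPL38, RPLP2, RPS13 and RPS25 in none (6.49% of members, 11.4% of all genes). With the batch number as a block RPL13A lost its call with ATO in NB4 (0.17, adjusted p = 0.0576) and RPL27 gained one with the combination in HL-60 (-0.11, adjusted p = 0.0453). RPL13A lost its call with ATO in NB4 without untreated batch 1, untreated batch 2, ATO batch 1, ATO batch 2 or ATO batch 3 (0.15 to 0.18, adjusted p = 0.079 to 0.127) and with ATRA in HL-60 without untreated batch 1 or untreated batch 3 (0.12 to 0.15, adjusted p = 0.0521 to 0.0775), and RPL26 with ATO in NB4 without untreated batch 1, untreated batch 2, ATO batch 1 or ATO batch 3 (-0.22 to -0.27, adjusted p = 0.111 to 0.182).

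RPL6, RPS27 and RPL26 kept 1 direction in all 6 treatments. RPL26, whose coding bases are mostly shared, was lower in each. RPL6 was at 1823, 1942 and 1878 CPM in untreated HL-60, 1603, 1602 and 1641 with ATRA, 1712, 1771 and 1753 with ATO and 1542, 1573 and 1481 with the combination, and fell in each (log2 changes -0.21, -0.095 and -0.28, adjusted p = 2.89e-05, 0.0459 and 3.84e-07). The ATRA, ATO and combination libraries all lay below the untreated ones. RPS27 rose with all 3 treatments in both lines, by 0.40, 0.18 and 0.59 on the log2 scale in NB4 and by 0.27, 0.26 and 0.20 in HL-60, in the order ATRA, ATO and combination. Its rise with the combination in HL-60 did not pass with library sizes alone. RPL6 lost its call with ATO in HL-60 without untreated batch 2, untreated batch 3, ATO batch 1 or ATO batch 3 (-0.069 to -0.10, adjusted p = 0.0694 to 0.175), and RPS27 with ATO in NB4 without untreated batch 1, untreated batch 2, ATO batch 1, ATO batch 2 or ATO batch 3 (0.11 to 0.20, adjusted p = 0.0736 to 0.251). RPL13A changed direction with the line: it was at 1748, 1935 and 1724 CPM with the combination in NB4 (log2 fold change 0.40 ± 0.068 (SE), adjusted p = 2.26e-05), and in HL-60 went from 2094, 2319 and 2013 to 1712, 1977 and 1668 CPM (log2 fold change -0.25 ± 0.053 (SE), adjusted p = 0.000331).

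Whether the lines differed in their response was tested in the fit of all 24 libraries. The response to ATRA was higher in NB4 for 12 members and lower for 4 (all genes 17.7% and 16.8%, 34.5% in either direction), that to ATO higher for 0 and lower for 7 (all genes 7.11% and 6.00%, together 13.1%), and that to the combination higher for 31 and lower for 15 (all genes 24.9% and 22.7%, together 47.5%). The median differences of response were 0.096, -0.0064 and 0.14, beside 0.026, 0.021 and 0.11 for all genes. With library sizes alone that for ATO was 0.056, with 2 responses higher and 5 lower in NB4, and those to the combination were 46 higher and 9 lower. With the GC trend removed, 21 responses to the combination were higher and 20 lower in NB4, with a median of -0.0055. The count for ATRA, 16, was 28 without NB4 ATRA batch 2, and that for ATO, 7, was 11 without HL-60 untreated batch 2.

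With ATRA, RPS14 (difference of log2 changes 0.41 ± 0.087 (SE), adjusted p = 0.000325), the small subunit protein of the 5q- syndrome, and RPLP0 (difference 0.41 ± 0.076 (SE), adjusted p = 7.45e-05) rose more in NB4. RPS14 was at 817, 834 and 882 CPM untreated and 1167, 994 and 1242 CPM with ATRA in NB4, and at 1116, 1217 and 1087 and 1118, 1182 and 1159 CPM in HL-60. The ATRA libraries were the higher ones in NB4 and overlapped the untreated ones in HL-60. RPL17 (difference -0.41 ± 0.12 (SE), adjusted p = 0.00857) and RPL7 of the large subunit (difference -0.34 ± 0.091 (SE), adjusted p = 0.00368) had the lower response in NB4. With ATO the responses of RPL7 (difference -0.39 ± 0.091 (SE), adjusted p = 0.00374), RPL21 (difference -0.35 ± 0.065 (SE), adjusted p = 0.000232) and RPS3A (difference -0.27 ± 0.063 (SE), adjusted p = 0.00328) were lower in NB4. The ATRA difference of RPL17 lost its call without HL-60 untreated batch 2 (-0.32, adjusted p = 0.0577), and that of RPL7 with the GC trend removed (-0.19, adjusted p = 0.0834).

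With the combination the differences between the lines reached their largest values. RPS21 was at 151, 184 and 137 CPM in untreated HL-60 and 123, 152 and 124 CPM with the combination, against 116, 131 and 145 and 181, 234 and 203 CPM in NB4 (difference 0.90 ± 0.15 (SE), adjusted p = 7.33e-06). RPL28 was at 482, 499 and 420.1 and 389, 488 and 401 CPM in HL-60 (difference 0.79 ± 0.11 (SE), adjusted p = 7.44e-07), and RPL13A differed by 0.67 ± 0.091 (adjusted p = 3.02e-07). All 3 rose in NB4, where the treated and untreated libraries did not overlap. RPL17, with only shared coding bases, had the lower response in NB4 (difference -0.93 ± 0.12 (SE), adjusted p = 1.83e-07). RPS10 (difference -0.50 ± 0.29 (SE), adjusted p = 0.162) did not pass the test.

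**Figure D4:**
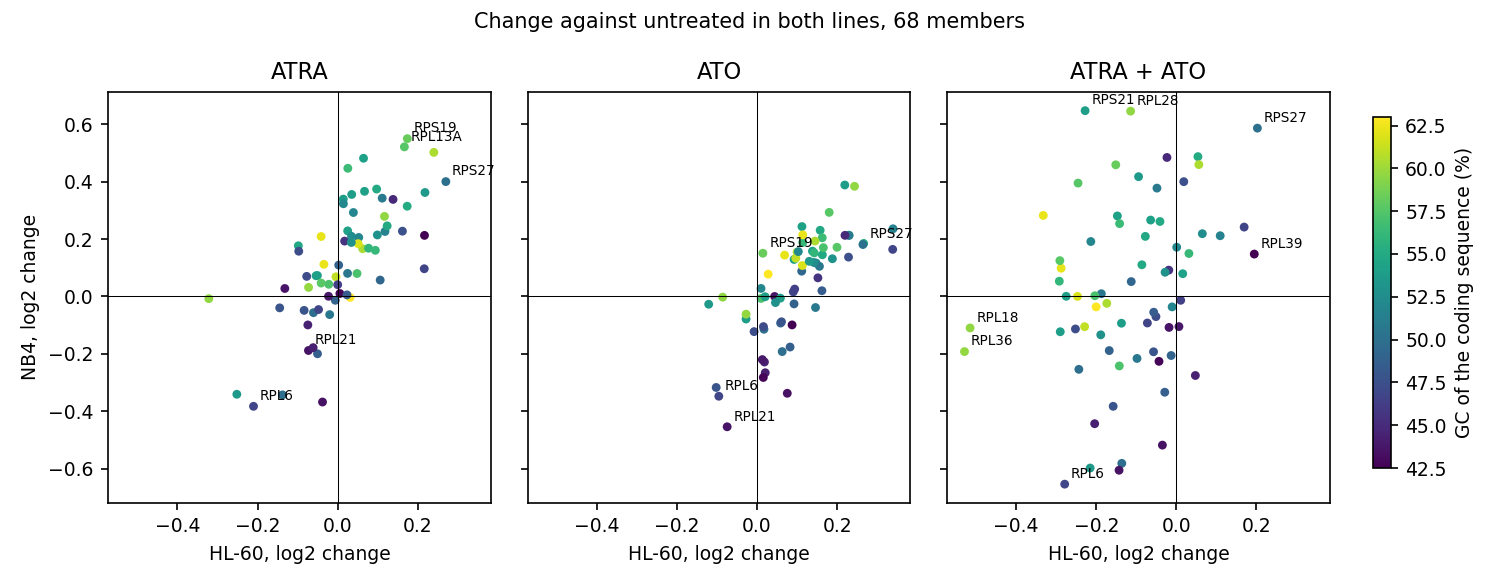
Log2 change in HL-60 (x axis) and NB4 (y axis) with ATRA, ATO and the combination for the 68 members that share at most 50% of their coding bases, 1 point a member, coloured by the GC percentage of the coding sequence. Members higher in 1 line tend to be higher in the other with ATRA and ATO (rho 0.766 and 0.787), and with the combination (rho 0.259) members of higher GC lie toward the left.

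Base composition of the coding sequence went with several of these changes. Over the 68 members with at most 50% shared coding bases (median coding GC 52.3%), the Spearman rho between coding GC and log2 change was 0.408 with ATRA, 0.583 with ATO and 0.383 with the combination in NB4. It was 0.233, 0.194 and -0.446 in HL-60, and 0.795 for the difference of response to ATO between the lines. Members of higher GC thus leaned up with treatment in NB4 and down with the combination in HL-60. Among the 34 members of higher GC, 10 rose and 0 fell with ATO in NB4, and among the 34 of lower GC 5 rose and 11 fell. In HL-60 with the combination, 0 of the 34 of higher GC rose and 22 fell, against 3 and 10 of the 34 of lower GC. The untreated difference between the lines went with GC less (rho -0.203).

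The whole libraries leaned the same way. Over all protein-coding genes the rho of transcript GC with the log2 change was 0.333 for NB4 with ATO, 0.166 with ATRA and -0.154 for HL-60 with the combination. Over the 77 members the rho of transcript GC, not coding GC, was 0.46, 0.276 and -0.331 in the same order. For the interaction term the rho over all protein-coding genes was -0.441 in HL-60 and -0.267 in NB4, and over the members -0.441 and -0.371. By library, the rho between transcript GC and a gene's deviation from its mean was -0.236, -0.219 and -0.125 in untreated NB4, and -0.331, -0.040 and -0.27 in HL-60 with the combination, where the median deviation of members was -0.18, -0.0011 and -0.15. With that trend taken out of each library, the combination in HL-60 gave 7 rises and 33 falls (median -0.086), and ATRA in NB4 27 rises and 15 falls (median 0.066). The part of GC in the members' changes was not tested further.

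Length and the start motif were looked at in the same way. Coding length went with the change from ATRA to the combination in NB4 (rho -0.501 over 68 members), longer members being lower. The 46 members with a pyrimidine start had a median log2 change of 0.13 with ATRA in NB4, with 22 risen and 4 fallen, and the 16 without one at their listed starts 0.069, with 5 risen and 3 fallen. For the combination the medians were -0.0085 and -0.013 in NB4 and -0.10 and -0.10 in HL-60. With library sizes alone 0 of all members were called higher with the combination in HL-60. RPS19 and RPS21, whose long runs of pyrimidines are printed above, were called higher with the combination in NB4 and lower in HL-60. RPL39, whose run of pyrimidines fills the printed window
RPL39: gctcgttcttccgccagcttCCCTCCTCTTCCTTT
(chrX:119791616-119791650, GRCh38.p14), rose with the combination in both lines, as did RPS27, whose run holds 7 bases.

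Other genes that build the ribosome are set beside the members here, from lists chosen with earlier results of these data known. Of 32 ribosome assembly factors, 29 fell and 0 rose with ATRA in NB4, 26 fell with ATO and 31 fell with the combination, with median log2 changes of -0.84, -0.42 and -1.53. Of all genes 28.6%, 19.6% and 32.8% fell. In HL-60, 27, 28 and 22 fell, with medians of -0.38, -0.30 and -0.41, where 23.3%, 12.1% and 29.7% of all genes fell. NCL, which encodes the nucleolar protein nucleolin, fell by 1.70 on the log2 scale with the combination in NB4, and NPM1, the nucleophosmin gene, changed by -0.75 ± 0.067 (SE) with ATO in NB4 and by -0.47 ± 0.031 with ATRA in HL-60. NOP10, part of the box H/ACA particles, was at 0.043 ± 0.069 with the combination in NB4 and did not pass the test. Over the same comparisons the 77 members had medians between -0.10 and 0.093.

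RNA polymerase I, which transcribes the ribosomal RNA precursor, fell in 12, 10 and 11 of its 14 genes with ATRA, ATO and the combination in NB4, and in 8, 9 and 9 in HL-60. Its subunit gene POLR1G changed by -2.85 ± 0.11 with the combination in NB4. Of 12 dedicated chaperones and importers of ribosomal proteins, 10, 9 and 11 fell in NB4 and 5, 6 and 6 in HL-60. GRWD1, the chaperone of RPL3, changed by -1.25 ± 0.071 with the combination in NB4, while RPL3 itself was at 0.11 ± 0.062 (adjusted p = 0.12). MYC, a transcriptional activator of ribosome genes, fell in all 6 comparisons, with log2 changes of -0.96 ± 0.068, -0.82 ± 0.068 and -2.32 ± 0.071 in NB4 and of -0.87 ± 0.052, -0.53 ± 0.051 and -1.38 ± 0.052 in HL-60, in the order ATRA, ATO and combination.

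The mitochondrial ribosomal proteins, made by nuclear genes and used in mitochondria, fell in 57, 27 and 65 of 77 tested genes in NB4 and in 36, 18 and 36 in HL-60. That is 74.0%, 35.1% and 84.4% in NB4, beside 28.6%, 19.6% and 32.8% of all genes. In HL-60 it is 46.8%, 23.4% and 46.8%, beside 23.3%, 12.1% and 29.7%. The median log2 change of the mitochondrial ribosomal proteins with the combination in NB4 was -0.61, where that of the cytosolic members was -0.013. Of 26 translation initiation factors 25 fell with the combination in NB4 (96.2%, beside 32.8% of all genes), among them EIF4E, the cap-binding subunit (-1.5 ± 0.071). The 17 translation factors and other proteins with 5′ TOP mRNAs moved both ways. With ATRA in NB4 6 rose and 5 fell, 35.3% and 29.4% beside 31.3% and 28.6% of all genes. With the combination there 4 rose and 8 fell, 23.5% and 47.1% beside 35.4% and 32.8%. With ATO in HL-60 7 rose and 2 fell, 41.2% and 11.8% beside 16.5% and 12.1%. EEF1A1, the elongation factor that brings transfer RNAs to the ribosome, was at 0.057 ± 0.047 with the combination in NB4, which did not pass, and rose with ATO in HL-60 (0.27 ± 0.029). TPT1 rose with ATRA in NB4 (0.38 ± 0.057).

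Non-coding hosts of small nucleolar RNAs, some of which also start with pyrimidines, fell in 7, 8 and 9 of 12 genes in NB4 and in 5, 5 and 6 in HL-60. GAS5 changed by -0.69 ± 0.062 with ATO in NB4. Of the 17 regulators of 5′ TOP mRNAs and of mTORC1, 12 fell and 2 rose with the combination in NB4. That is 70.6% and 11.8%, beside 32.8% and 35.4% of all genes. CNBP, a binder of 5′ TOP mRNAs, changed by -0.86 ± 0.056 with the combination in NB4. In HL-60, 4 of the 17 rose and 7 fell with ATRA, and 3 rose and 2 fell with ATO. Of all genes 25.2% rose and 23.3% fell with ATRA there, and 16.5% and 12.1% with ATO. DDIT4, an inhibitor of mTORC1, rose in HL-60 with ATRA (1.25 ± 0.086) and with ATO (1.14 ± 0.086). It did not rise in NB4, where its mean was 52.7 CPM untreated and 52.5, 32.0 and 36.2 with ATRA, ATO and both.

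The 19 members mutated in Diamond-Blackfan anaemia gave 6 rises and 11 falls with the combination in NB4 (31.6% and 57.9%, median -0.19). In HL-60 they gave 1 rise and 8 falls with it (5.26% and 42.1%, median -0.11). Of all genes 35.4% rose and 32.8% fell with the combination in NB4, and 30.7% and 29.7% in HL-60. RPS19 was higher with the combination in NB4 and lower in HL-60 (-0.15 ± 0.054, adjusted p = 0.0197). FAU, which encodes a ribosomal protein made as a fusion with a ubiquitin-like domain and lies outside the name rule, rose with the combination in NB4 (0.20 ± 0.074). Of the 6 paralogs, RPL7L1 fell with ATRA (-0.79 ± 0.059), ATO (-0.48 ± 0.059) and the combination (-1.25 ± 0.059) in NB4, and in HL-60 it was at 0.00040 ± 0.032 with the combination, which did not pass. RPL7, its counterpart among the members, was at -0.52 ± 0.075 with the combination in NB4 (adjusted p = 2.51e-06).

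**Figure D5:**
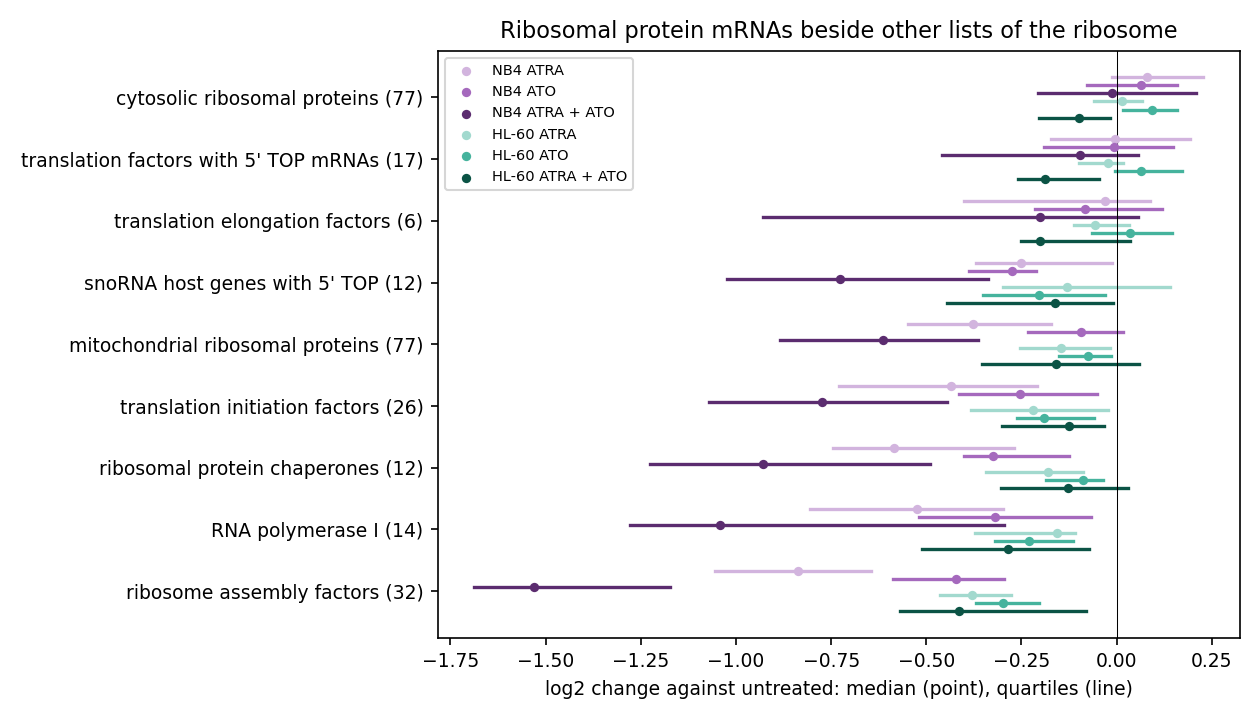
Median log2 change (points) and range between the quartiles (lines) of the 77 members and of 8 other lists, with the number of genes tested in brackets, in the 6 comparisons with untreated cells (x axis: log2 change). The medians of the members lie between -0.10 and 0.093, while that of the assembly factors reaches -1.53 in NB4 with the combination.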

How the data were processed

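Messenger RNA sequencing was deposited as 1 table of counts per gene for 24 libraries, 3 in each of 8 groups. The deposited counts are whole numbers and not normalized. Per the submitters' processing notes the tools were fastp, HISAT2, featureCounts and DESeq2 and the build was GRCh38. The annotation release, the versions, whether reads or fragments were counted and the treatment of multiply mapped reads were not given in the sources used here. Of the counts from 1 to 9 a share of 74.4% was even, and of those of 500 or more 51.5%, so the counting error of low counts is unsure. Library totals were 37811652 to 57795273.

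Counts were fitted with edgeR 4.0.16 (R 4.3.3, limma 3.58.1) by its quasi-likelihood test with TMM scaling after edgeR's filter on low counts: the 12 libraries of a line for treatments (16370 genes tested in NB4, 15895 in HL-60) and all 24 for comparisons of the lines (17930). A gene was called at a Benjamini-Hochberg adjusted p below 0.05 over all genes tested. The standard error of a log2 change is its size over the square root of F. CPM are counts scaled to equal corrected library totals, each the total times its TMM factor in the fit of all 24 libraries. The fits were tested on simulated data first. Gene types and coding sequences came from GENCODE v29, start windows from RefSeq (GRCh38.p14). Members and lists were chosen with earlier results of these data known. Named members are the 3 at each end of each comparison with untreated cells and of each comparison of the lines, and a panel of 10. For other lists they are the genes of smallest p and the uncalled gene of highest mean. Some genes that this rule names are not reported here.

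The labels give each library a batch number, and libraries with the same number were taken as paired across the groups of a line on that ground alone. The data did not show this pairing in NB4: deviations of same-numbered libraries from their group means had correlations from -0.447 up to 0.351, with 12 of 18 pairs below 0. In HL-60 they ran from -0.103 up to 0.438, with 7 of 18 below 0. The fits reported carry no block. Alternatives were the batch number as a block, DESeq2 1.42.0, other scalings and filters, fewer groups in the fit, halved counts, a GC trend removed, and each library left out.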

Additional observations from a re-analysis of the deposited data

Results flagged for a closer look

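These results are listed because an effect differed between groups by a test of the difference itself (edgeR's quasi-likelihood test, Benjamini-Hochberg adjusted). The response of 16 of the 77 members to ATRA (20.8%, beside 34.5% of all genes tested), of 7 to ATO (9.09%, beside 13.1%) and of 46 to the combination (59.7%, beside 47.5%) differed between NB4 and HL-60. The shares for ATRA and ATO thus lay below those of all genes. The effect of ATRA with ATO differed from the sum of the single effects for 17 members in NB4 (22.1%, beside 18.7%) and 42 in HL-60 (54.5%, beside 32.5%). With the GC trend removed the count in HL-60 was 42 as well, with 38 negative and 4 positive.

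With ATRA the response in NB4 minus that in HL-60 was -0.413 on the log2 scale for RPL17, -0.341 for RPL7, 0.41 for RPS14 and 0.406 for RPLP0. With ATO it was -0.386 for RPL7, -0.353 for RPL21 and -0.271 for RPS3A. With the combination it was -0.933 for RPL17, 0.9 for RPS21, 0.785 for RPL28 and 0.666 for RPL13A. RPL17 shares all of its coding bases with other genes.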

How the results depend on the processing

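Each library left out in turn, the number of members called ranged as follows. In NB4 it was 31 to 49 with ATRA, 18 to 37 with ATO, 44 to 48 with the combination, 23 to 45 and 25 to 32 for the combination against ATRA and ATO, and 8 to 32 for the interaction. In HL-60 it was 11 to 24, 11 to 44, 31 to 46, 27 to 47, 40 to 63 and 36 to 53 in the same order. Between the lines it was 14 to 28, 6 to 11 and 38 to 49 for the responses to ATRA, ATO and the combination, and 55 to 66 untreated. The medians ranged, in the same orders, in NB4 from 0.0309 to 0.134, 0.0325 to 0.0934, -0.0779 to 0.0371, -0.169 to -0.0805, -0.113 to -0.0316 and -0.199 to -0.1, in HL-60 from -0.0299 to 0.0673, 0.04 to 0.15, -0.154 to -0.055, -0.184 to -0.103, -0.247 to -0.145 and -0.284 to -0.184, and between the lines from 0.062 to 0.158, -0.0763 to 0.0341, 0.0903 to 0.196 and -0.396 to -0.287. The sign thus turned for the combination in NB4 (0.0141 without untreated batch 3, 0.00539 and 0.0371 without combination batches 1 and 3), for ATRA in HL-60 (-0.00165 and -0.0299 without untreated batches 1 and 3) and for the difference of response to ATO (0.0159 without NB4 untreated batch 3, 0.0341 without HL-60 untreated batch 3, 0.00491 without HL-60 ATO batch 2).

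Library sizes alone in place of TMM, which put the median of all genes at 0.127 with ATO and 0.129 with the combination in NB4, gave 46 members called and a median of 0.172 for ATO in NB4, and medians of 0.0654 for the combination in NB4, 0.0103 for it against ATRA, -0.0306 for ATRA in HL-60, -0.183 for the combination there and -0.305 for it against ATO. Between the lines the medians were 0.0558 for ATO, 0.273 for the combination and -0.208 untreated. The size factors of DESeq2 gave 11 calls of the NB4 interaction and a median of 0.000436 for the combination in NB4, and DESeq2 itself 11 calls for the difference of response to ATO. The median for the combination in NB4 was also 0.0122 with halved counts and 0.00159 without the members whose coding sequence is over 50% shared. A fit of only the groups compared called 50 members for ATO in NB4 and 21 for the combination against ATRA in NB4. With every gene of at least 1 count kept, 24 were called for ATRA in HL-60.

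The GC trend removed gave medians of -0.0223 for ATO in NB4, -0.00437 for ATRA in HL-60 (24 calls) and -0.00548 for the difference of response to the combination, and 15 calls for the difference of response to ATO. With the replicate block as well these were -0.0224, -0.00228 (31 calls), -0.00547 and 15 calls. The block alone changed no count of members called by over 1.5 times and no sign of a median. It took the call from RPS6 (-0.123, adjusted p = 0.0563) and RPL13A (0.172, adjusted p = 0.0576) with ATO in NB4 and gave one to 9 other named values. The cause of these shifts was not tested.

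The share of counts held by members in NB4 untreated, with ATRA, ATO and both was 6.9%, 7.27%, 7.43% and 7.14% of totals without mitochondrial genes and 7.33%, 7.71%, 7.91% and 7.63% without the 20 other genes of highest count. In HL-60 the values were 7.64%, 7.53%, 8.19% and 6.66%, and 8.13%, 8.01%, 8.8% and 7.19%. With pseudogene counts added the share was 7.24% for ATO in NB4 and 7.13% for ATRA in HL-60.

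Among the named members, 4036 single values under an alternative kept direction and side of the threshold, 117 gained a call, 195 lost one and 4 changed sign. The 4 were RPS6 with the combination in NB4 (0.0603 with the GC trend removed), RPLP0 untreated (0.00971 with library sizes alone), and RPL36 (-0.111) and RPL3 (-0.0986) in the difference of response to the combination with the GC trend removed. Few counts limit RPS10.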

Other observations

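RPL7L1, a paralog of RPL7 that works in ribosome assembly and is outside the name rule, was at 413.9 CPM in untreated NB4 and 1725 CPM in untreated HL-60 (log2 difference -2.06, edgeR adjusted p = 1.89e-26). It lies on chromosome 6, and many genes around it were lower in NB4 too. Some were higher, among them PTK7 (16.0 CPM in NB4 against 0.651 in HL-60, log2 difference 4.61), UNC5CL (2.72), TREML2 (1.10) and NFYA (0.21). MRPS10, a mitochondrial ribosomal protein gene, was at 67.2 against 1118 CPM (log2 difference -4.06) and BYSL, which encodes the small subunit assembly factor bystin, at 54.4 against 666.3 CPM (-3.61). MED20, a Mediator subunit gene, was at 25.5 against 490.2 CPM (-4.26), CCND3, which encodes cyclin D3, at 142.9 against 1010 CPM (-2.82), and HSP90AB1, a cytosolic chaperone gene, at 3379 against 13210 CPM (-1.97). These genes were picked after their values were seen, and the cause of the shared direction was not tested.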
